A study of Mus musculus with 8 samples.

Results

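Mitochondrial ribosomal proteins were taken as all gene symbols that start with Mrpl or Mrps followed by a digit. The deposited poly(A) table holds 74 such genes among 16456 transcripts, 46 of the large subunit (Mrpl symbols) and 28 of the small subunit (Mrps symbols). The LIN28A CLIP table holds 68 of them among 7820 transcripts (43 large, 25 small) and that of footprints holds 72 among 7936 (45 large, 27 small). Mrpl23, Mrpl27, Mrpl41, Mrps21, Mrps33 and Mrps36 have no CLIP values, and Mrpl33 and Mrps33 no footprint values. Mrpl53 and Mrps6, known mitochondrial ribosomal proteins with such symbols, are not among the 74. Each gene is represented by 1 RefSeq transcript, and the rule uses symbols alone.

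All libraries came from A3-1, a mouse embryonic stem cell line, grown in medium with fetal bovine serum and the cytokine LIF. The 3 CLIP libraries were made with the monoclonal antibodies 35L33G and 2J3 and with a polyclonal antibody, 1 library each, from cells with no siRNA named; no CLIP library from control antibody or from cells lacking LIN28A was analysed here. Poly(A) RNA was sequenced from untreated cells and from cells 48 h after siRNA against luciferase (siLuc, the control) or against Lin28a (siLin28a), 1 library each. Ribosome footprints, the RNA fragments that translating ribosomes protect from nuclease, were sequenced from the siLuc and siLin28a cells, 1 library each. Nothing in the labels says that libraries came from separate cultures, and all carry the genotype of 1 cell line.

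The mitochondrial ribosome translates the few proteins encoded by mitochondrial DNA, all of them subunits of the respiratory chain and ATP synthase. Its ribosomal RNAs come from the mitochondrial genome, whereas all of its proteins are encoded in the nucleus, translated by cytosolic ribosomes and imported. Many of its proteins descend from bacterial ribosomal proteins and others occur only in mitochondria. LIN28A, abundant in pluripotent cells, attaches to precursors of the let-7 microRNAs and to many mRNAs. CLIP fixes RNA to the protein with UV light, isolates the pair with an antibody and sequences the RNA.

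The siRNA duplexes define the perturbation, and are printed here without their dTdT overhangs, each strand 5′ to 3′ and 19 nucleotides long as the labels give it. 
siLuc strand 1: UCGAAGUACUCAGCGUAAG
siLuc strand 2: CUUACGCUGAGUACUUCGA
siLin28a strand 1: AUGUUCUUCCCUUUUGGCC
siLin28a strand 2: GGCCAAAAGGGAAGAACAU

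Total counts ran from 7698479 to 8027670 in the CLIP libraries, from 7475174 to 9605641 in the poly(A) libraries, and were 7570209 (siLuc) and 5980673 (siLin28a) in the footprint libraries. Lin28a mRNA stood at 133 RPKM (reads per kilobase of exon, scaled to library total) in untreated cells, 102 with siLuc and 34.0 with siLin28a, so the library labelled siLin28a had the lowest level. Of 10 embryonic stem cell markers, including Pou5f1, Sox2 and Nanog, 10 were measured, at 34.0 to 1055 RPKM over the poly(A) libraries. Endoderm markers (3 of 3 measured) reached at most 0.245 RPKM, mesoderm markers (2 of 2) 0.955 and neural markers (3 of 3) 3.47. Of 6 fibroblast markers 4 were measured: the collagens Col1a1 and Col1a2 stayed at or below 0.368 RPKM, while Thy1 ranged from 6.12 to 13.9 and Vim from 83.5 to 158. The summed fibroblast list went from 97.9 RPKM in untreated cells to 156.5 with siLuc and 164 with siLin28a, most of it Vim. The summed stem cell list stood at 3227, 3257 and 3990 RPKM in the same libraries, the mesoderm list at 0.935, 0.306 and 1.57, the neural list at 1.93, 2.70 and 4.82 and the endoderm list at 0.231, 0.371 and 0.576. The part of these shifts in the siRNA comparisons was not tested.

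Mitochondrial ribosomal protein mRNAs were abundant in every poly(A) library. Their median level was 48.5 RPKM in untreated cells, 53.0 with siLuc and 50.5 with siLin28a, against 5.70, 5.58 and 5.82 RPKM over all transcripts. Large and small subunit genes had medians of 51.8 and 48.0 RPKM in untreated cells. Together the 74 genes took 4893 CPM (counts scaled to the library total) in untreated cells, 4990 with siLuc and 4756 with siLin28a.

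Mrpl12, which forms the flexible stalk that recruits translation factors to the large subunit, was the most abundant per length, at 174 RPKM in untreated cells, 171 with siLuc and 155 with siLin28a. Mrpl28 followed with 141, 138 and 134 RPKM in the same libraries. Mrpl2, the homolog of the core large subunit protein L2, had 136, 150 and 136 RPKM. The small subunit gene Mrps24 stood at 126, 91.9 and 93.8 RPKM and the mitochondria-specific Mrpl38 at 120, 119 and 143 RPKM, so the order among these 5 genes was not the same in every library. At the other end, Mrps36 (0.754, 0.561 and 0.582 RPKM), Mrps33 (0.822, 1.53 and 1.19 RPKM) and Mrpl23 (1.67, 0.690 and 0.716 RPKM) were nearly absent from the poly(A) table. Mrpl41 (4.05, 5.47 and 6.19 RPKM) and Mrpl19 (6.70, 6.85 and 6.46 RPKM) were the next lowest.

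These low values do not hold in every table. Mrpl23 had 3 poly(A) counts with siLuc in the poly(A) table and 310 in the footprint table, and Mrps36 had 3 and 96. Scaled to library totals, the footprint table's siLuc poly(A) count was over 2-fold above the other in 8 members and over 2-fold below in 5. Mrpl23, Mrpl27, Mrpl48 and Mrps36 are the 4 members with a pseudogene entry in RefSeq, so reads may be shared with a copy and their levels are uncertain. Mrps36, despite its symbol, is known as a subunit of a dehydrogenase of the citric acid cycle and is not part of the solved mitochondrial ribosome. 

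LIN28A CLIP placed these transcripts on both sides of the bulk. Log2 enrichment is the CLIP count of an antibody over the untreated poly(A) count, each scaled to its library with TMM factors, which centre on the bulk of transcripts; a value of 1 is a 2-fold higher share. Of 68 members, 18 were enriched, 18 were depleted and 32 were not called at an adjusted p under 0.05 (edgeR quasi-likelihood test, Benjamini-Hochberg over 7820 transcripts). Over all transcripts 34.6% were called enriched and 33.3% depleted, so both shares of the members, 26.5% each, lay below the background. The members' median enrichment was −0.22, against −0.03 for all transcripts, and their SD was 1.02 against 1.34. With scaling by total counts in place of TMM, 11 members were enriched and 32 depleted, and over all transcripts 25.4% and 46.1%; that scaling moved the median of all transcripts from −0.03 to −0.40.

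**Figure D1:**
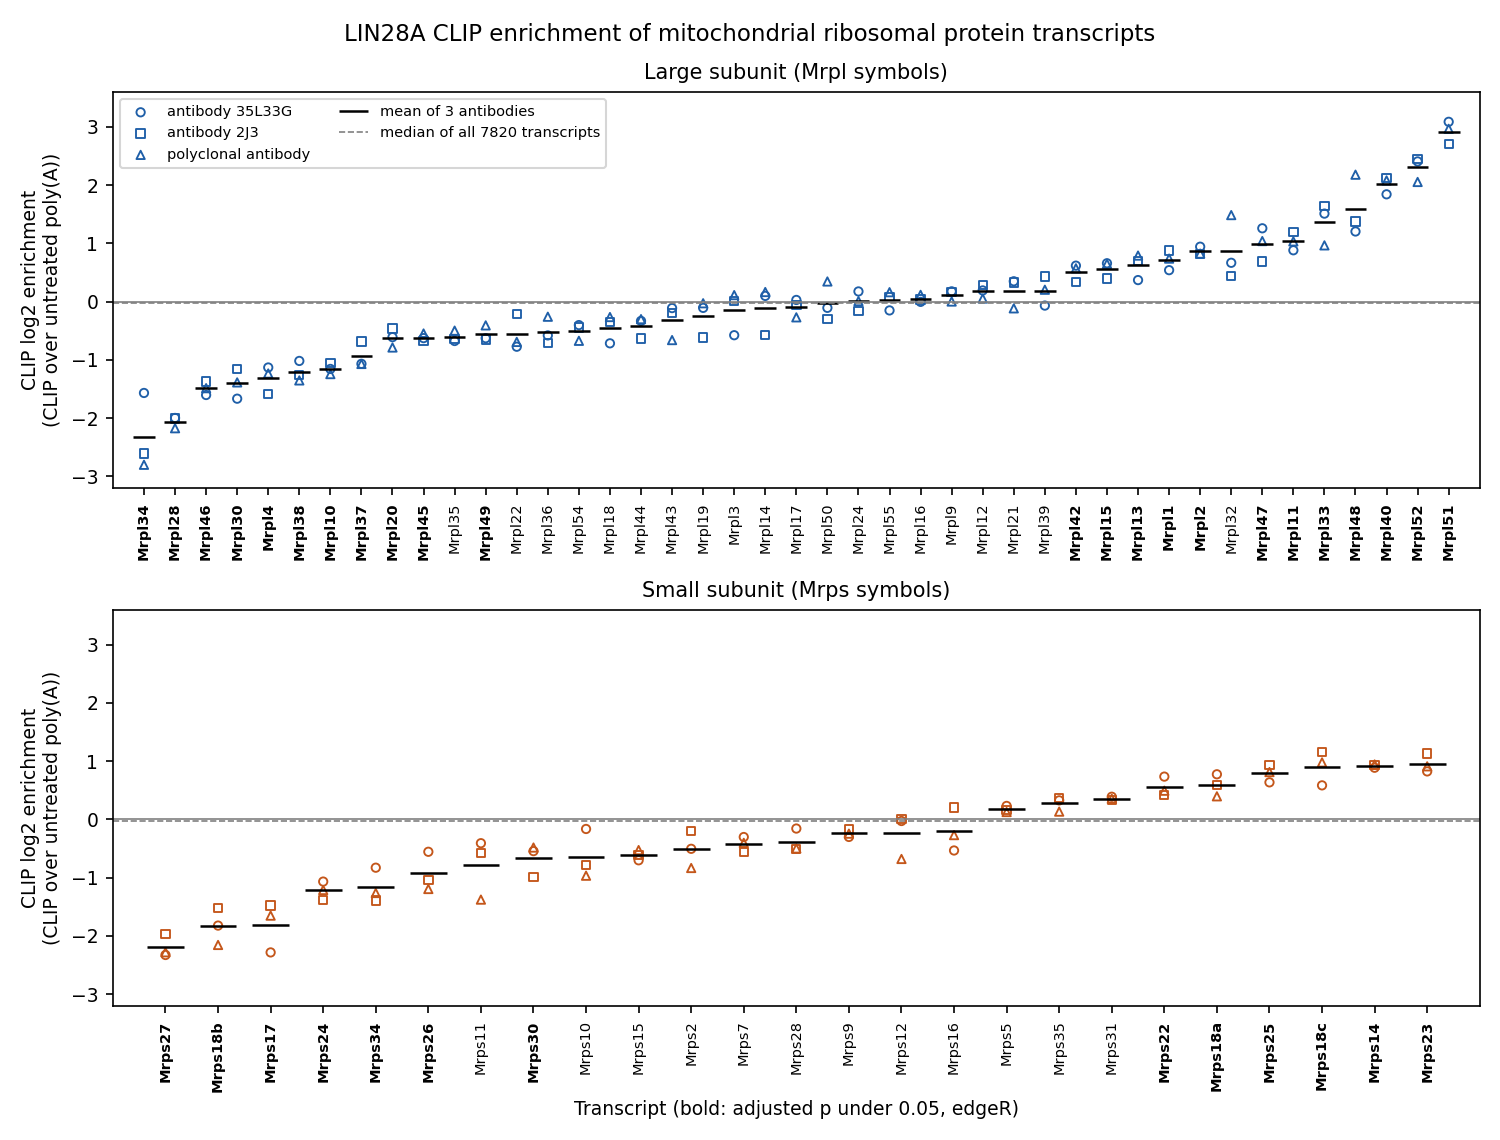
Log2 CLIP enrichment over untreated poly(A) RNA (y axis, no unit) for each of 43 large and 25 small subunit transcripts, sorted by mean; open symbols are the 3 antibodies, bars their mean, and bold names passed adjusted p under 0.05 in edgeR. The 3 antibodies lie close together for most transcripts, from Mrpl51 near 2.92 down to Mrpl34 near −2.33.

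The antibodies placed most members on the same side. All 3 values were above 0 for 24 members and below 0 for 33, and 11 had values on both sides. The median SD over antibodies was 0.19 for the members and 0.15 for all transcripts.

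Mrpl51 and Mrpl52, both mitochondria-specific proteins of the large subunit, led the list. Mrpl51 (NM_025595; mm9 chromosome 6, 125142218 to 125144410) had 250 counts in untreated poly(A) RNA and 1436, 1114 and 1360 counts with 35L33G, 2J3 and the polyclonal antibody. Its log2 enrichment was 3.09, 2.71 and 2.97, a mean of 2.92 ± 0.20 (SD, n = 3 antibodies, edgeR adjusted p = 2.45e-11). Its siLuc poly(A) count was 198 in the poly(A) table and 514 in the footprint table, so its poly(A) level is uncertain. With the poly(A) column deposited beside the CLIP counts, its edgeR log2 fold change was 2.51, against 2.93 with the untreated count. Mrpl52 (NM_026851; mm9 chromosome 14, 55045746 to 55048587) had log2 values of 2.41, 2.46 and 2.06, a mean of 2.31 ± 0.22 (edgeR adjusted p = 1.14e-09). Mrpl40, a further mitochondria-specific large subunit protein, had 1.84, 2.12 and 2.08, a mean of 2.02 ± 0.15 (edgeR adjusted p = 1.3e-10). In each of these 3 transcripts every antibody stood above the values of all small subunit members. They were picked as the highest by these same values, so this order was partly fixed by the choice. The upper quartile of all 7820 transcripts was 0.84.

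The other 2 of the 5 highest large subunit members were less even. Mrpl48 had log2 enrichments of 1.21, 1.38 and 2.18 (mean 1.59 ± 0.52, edgeR adjusted p = 0.0104), from only 68 untreated poly(A) counts. Without the polyclonal library, its highest, Mrpl48 was no longer called (edgeR adjusted p = 0.0549), nor with the poly(A) column deposited beside the CLIP counts (0.0518). Mrpl33, the homolog of the small bacterial protein L33, had 1.51, 1.64 and 0.97 (mean 1.37 ± 0.36, edgeR adjusted p = 1.03e-04).

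Among proteins of the stalks that handle translation factors and tRNA, CLIP values differed in sign. Mrpl11, at the base of the stalk that carries Mrpl12, was enriched at 1.04 ± 0.16 (edgeR adjusted p = 5.77e-05) and Mrpl1, homolog of the protein of the L1 stalk, at 0.72 ± 0.17 (edgeR adjusted p = 0.0037). Mrpl10, which anchors Mrpl12, was depleted at −1.15 ± 0.09 (edgeR adjusted p = 8.86e-06). Mrpl12 itself, the most abundant member, lay at 0.18 ± 0.12 and was not called (edgeR adjusted p = 0.237).

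Mrpl34, the homolog of the smallest proteins of the bacterial large subunit, was the most depleted member and the one on which the antibodies differed most. It had 406 untreated poly(A) counts and 92, 45 and 40 CLIP counts, which gave −1.57, −2.61 and −2.80 (mean −2.33 ± 0.66, edgeR adjusted p = 2.66e-04). Mrpl28 was as low with less spread, at −1.997, −2.007 and −2.17 (mean −2.06 ± 0.10, edgeR adjusted p = 9.09e-09). Mrpl46, of the central protuberance, had −1.60, −1.37 and −1.48 (mean −1.49 ± 0.12, edgeR adjusted p = 8.61e-04). Mrpl30, a homolog of bacterial L30, lay at −1.40 ± 0.26 (edgeR adjusted p = 7.83e-05), and Mrpl4, whose bacterial homolog lines the peptide exit tunnel, at −1.32 ± 0.24 (edgeR adjusted p = 6.86e-05). In these 5 transcripts the values of all 3 antibodies lay below −1.

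Small subunit members covered a narrower range at the upper end. The highest was Mrps23, a mitochondria-specific protein, with 0.82, 1.13 and 0.91 (mean 0.95 ± 0.16, edgeR adjusted p = 4.84e-05). Mrps14, homolog of bacterial S14, had 0.89, 0.93 and 0.94 (mean 0.92 ± 0.03, edgeR adjusted p = 3.19e-05), the most even of the enriched members. Mrps25, also mitochondria-specific, had 0.63, 0.94 and 0.81 (mean 0.79 ± 0.15, edgeR adjusted p = 6.47e-04); its locus overlaps that of Nr2c2, whose reads may be shared.

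The lowest small subunit member was Mrps27, a pentatricopeptide repeat protein, with −2.33, −1.97 and −2.28 (mean −2.19 ± 0.20, edgeR adjusted p = 2.54e-07). Its locus overlaps that of the gene 6430562O15Rik. Mrps17, homolog of bacterial S17, had −2.29, −1.48 and −1.65 (mean −1.81 ± 0.42, edgeR adjusted p = 2.48e-05). Mrps24 lay at −1.22 ± 0.16 (edgeR adjusted p = 1.42e-05) and Mrps34, a mitochondria-specific protein, at −1.16 ± 0.29 (edgeR adjusted p = 0.00258).

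The 3 paralogs of bacterial S18 fell on different sides. Mrps18c, which takes the place of S18 in the small subunit, had 0.58, 1.15 and 0.98 (mean 0.91 ± 0.29, edgeR adjusted p = 0.0149). Mrps18a, which sits in the large subunit by structure, had 0.77, 0.59 and 0.39 (mean 0.58 ± 0.19, edgeR adjusted p = 0.0213). Mrps18b, a small subunit protein at another site, had −1.82, −1.52 and −2.16 (mean −1.83 ± 0.32, edgeR adjusted p = 2.02e-04). None of its antibody values overlapped those of Mrps18a and Mrps18c, but the 3 values of each paralog share 1 untreated poly(A) count. Without antibody 2J3 the Mrps18c call was lost (edgeR adjusted p = 0.0591), and without 35L33G that of Mrps18a (0.0768).

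Of 43 large subunit members 12 were enriched, 11 depleted and 20 not called, with a median of −0.10. Of 25 small subunit members 6 were enriched, 7 depleted and 12 not called, with a median of −0.39. The shares over all transcripts were 34.6% enriched and 33.3% depleted. The large minus small difference of medians was 0.20 with 35L33G, 0.03 with 2J3 and 0.49 with the polyclonal antibody, a mean of 0.24 ± 0.23 (SD, n = 3 antibodies), about as large as its spread. Counted on coding sequence alone, that difference turned to −0.15.

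By origin, large subunit proteins with bacterial homologs had 7 enriched and 6 depleted of 28 (median −0.04), against 34.6% and 33.3% of all transcripts. Mitochondria-specific large subunit proteins, with Mrps30 and Mrps18a placed there by structure, had 6 enriched and 6 depleted of 17 (median −0.32). Small subunit proteins with bacterial homologs had 2 enriched and 3 depleted of 15 (median −0.42), and mitochondria-specific small subunit proteins 3 and 3 of 8 (median 0.32). Mrps30, the large subunit protein by structure, was depleted at −0.55, −0.99 and −0.48 (mean −0.67 ± 0.27, edgeR adjusted p = 0.00692).

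Further known mitochondrial ribosomal proteins carry other symbols. Of these 7 were measured, with 1 enriched and 4 depleted (median −0.68), against 34.6% and 33.3% of all transcripts. Chchd1 was enriched at 1.00 ± 0.29 (edgeR adjusted p = 0.00118). Aurkaip1 (−1.13 ± 0.09), Ict1 (−1.13 ± 0.21), the GTP-binding protein Dap3 (−0.78 ± 0.04) and Gadd45gip1 (−0.68 ± 0.07) were depleted by the same test. Ptcd3, a pentatricopeptide repeat protein, lay at −0.39 ± 0.12 and Mrp63 at −0.40 ± 0.30, and neither was called.

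**Figure D2:**
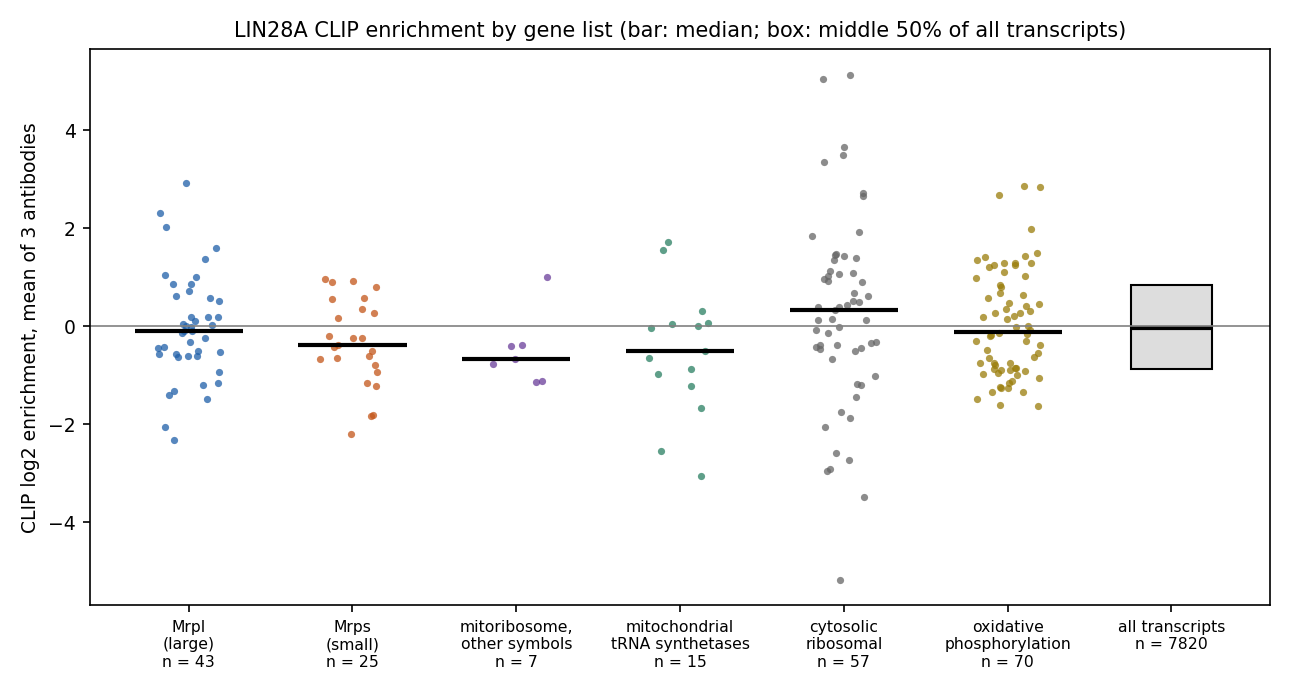
Mean log2 CLIP enrichment over 3 antibodies (y axis, no unit), 1 point per transcript, with black bars at list medians; the grey box spans the middle 50% of all 7820 transcripts. The Mrpl and Mrps points lie within about −2.33 to 2.92, a narrower band than the cytosolic ribosomal proteins, which run from −5.18 to 5.13.

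Other genes of mitochondrial gene expression and of the respiratory chain also had calls on both sides. Over all transcripts 34.6% were called enriched and 33.3% depleted, so calls on both sides are common in these data. Genes with symbols of oxidative phosphorylation subunits, a list drawn by symbol that also takes in a few genes that are not subunits, had 28 enriched and 27 depleted of 70 (median −0.11). Cytosolic ribosomal proteins had 26 enriched and 19 depleted of 57 (median 0.33), and some of their reads may be shared with pseudogenes. Mitochondrial translation factors had 1 enriched and 6 depleted of 11 (median −1.01), mitochondrial aminoacyl-tRNA synthetases 2 and 7 of 15 (median −0.51), and genes of mitochondrial ribosome assembly and mitochondrial RNA handling 7 and 8 of 22 (median −0.24). The differences between these lists were not tested.

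The extremes of each list were wide apart. In the oxidative phosphorylation list, the complex I subunits Ndufa5 (2.86 ± 0.14) and Ndufb11 (2.84 ± 0.05) were enriched and the ATP synthase subunit Atp5d (−1.63 ± 0.16) and Atp5sl (−1.60 ± 0.54) depleted; Atp5sl is known as a complex I assembly factor and not a subunit. Among cytosolic ribosomal proteins, Rps26 (5.13 ± 0.11) and Rpl13 (5.05 ± 0.15) stood highest and Rps13 (−5.18 ± 2.44) and Rpl35 (−3.48 ± 1.40) lowest. Of the translation factors, Guf1, the homolog of elongation factor 4, was enriched at 2.25 ± 0.04 and the next highest, Mtif2, lay at 0.38 ± 0.03 and was not called. The recycling factor Mrrf (−2.75 ± 1.45) and Tufm, the mitochondrial elongation factor Tu (−2.60 ± 0.83), were depleted. The synthetases Yars2 (1.71 ± 0.06) and Iars2 (1.55 ± 0.01) were enriched and Sars2 (−3.05 ± 0.30) and Mars2 (−2.54 ± 0.47) depleted. Of the assembly and RNA handling genes, Fastkd2 (1.51 ± 0.09) and Pnpt1 (1.47 ± 0.11) were enriched and Gtpbp5 (−2.57 ± 0.46) and Mrm1 (−1.77 ± 0.41) depleted.

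Within the transcripts, CLIP counts lay mostly in coding sequence. The coding share is the percentage of coding plus 3′ UTR counts that fall in coding sequence, and all 68 members had at least 20 such counts with each antibody. The members' median share was 75.3% with 35L33G, 74.1% with 2J3 and 76.9% with the polyclonal antibody. By subunit these medians were 68.2%, 68.7% and 72.6% for the large and 80.5%, 80.3% and 81.7% for the small subunit. With each transcript's share averaged over the antibodies, the median was 74.4% for members and 69.5% over 7618 transcripts. Coding sequence made up a median of 67.2% of members' length and 56.4% of that of all transcripts. A coding share above the transcript's own coding percentage of length was seen for 41 of 68 members, against 72.1% of all transcripts. The length includes the 5′ UTR, which the share leaves out, so evenly spread counts would also put a transcript with a 5′ UTR above its percentage.

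At one extreme, Mrps15 and Mrpl22 had 0 counts in the 3′ UTR (a coding share of 100% with each antibody), and Mrpl52 had 99.6% ± 0.41 and Mrpl21 99.2% ± 0.70 (SD, n = 3 antibodies). At the other, Mrpl36 had 7.29%, 4.52% and 10.9%, although 34.3% of its length is coding. Mrpl43 had 13.3%, 16.8% and 4.48% with 39.6% of its length coding, and Mrpl34 19.6%, 11.1% and 17.5% with 43.2%. Mrpl51 had 14.0%, 10.8% and 12.2% with 25.5% of its length coding. The most enriched member and the most depleted one thus both had most of their counts in the 3′ UTR.

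**Figure D3:**
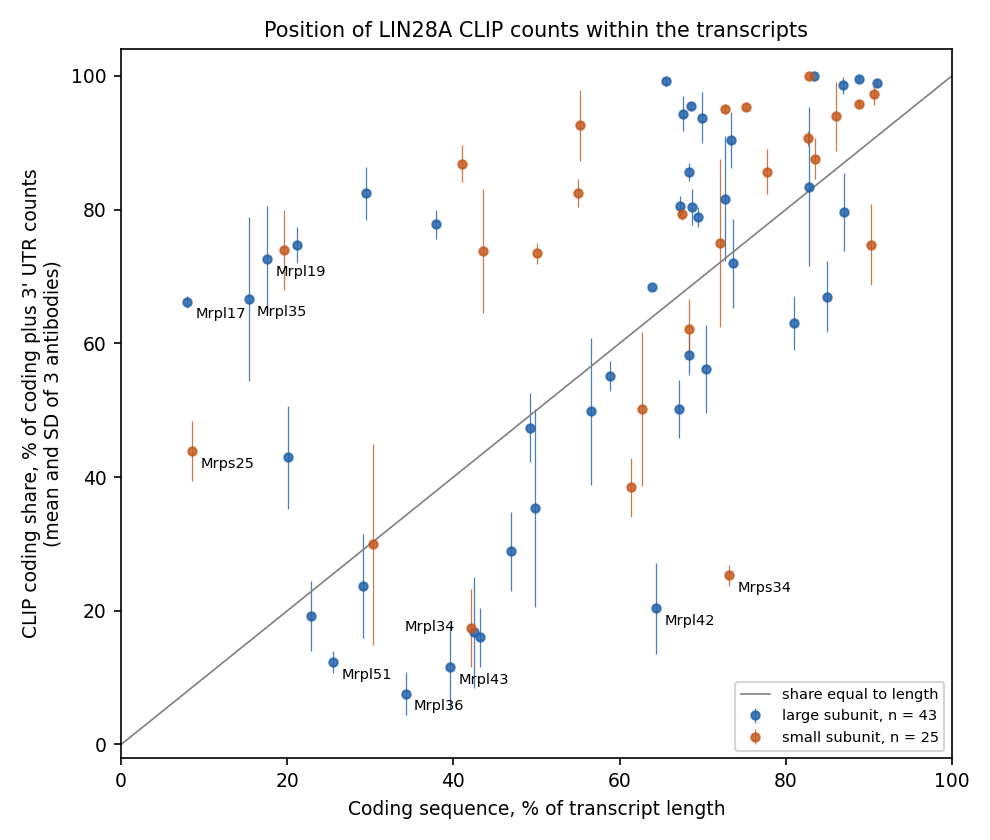
CLIP coding share (y axis, % of coding plus 3′ UTR counts, mean and SD of 3 antibodies) against the coding percentage of transcript length (x axis) for 43 large and 25 small subunit members; the line marks equality. Of 68 members, 41 lie above the line, and Mrpl51, Mrpl36, Mrpl43, Mrpl34, Mrpl42 and Mrps34 lie well below it. The length includes the 5′ UTR, which the share leaves out, so evenly spread counts need not fall on the line.

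Several transcripts with a small coding part had a coding share well above their coding percentage of length, though for Mrps25 most counts still lay in the 3′ UTR. Coding sequence is 7.91% of the length of Mrpl17, which had a coding share of 66.3% ± 0.90. It is 8.51% for Mrps25, with a share of 43.9% ± 4.52, 17.6% for Mrpl19 with 72.6% ± 7.95, and 19.6% for Mrps14 with 74.0% ± 6.003. Across members the coding share rose with the coding percentage of length (Spearman rho 0.63 over 68 transcripts and 0.73 over 7618), values that share the same annotation.

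The region counted decided some calls. With CLIP coding counts against untreated poly(A) exon counts, 21 members were enriched and 21 depleted, 30.9% each, near the 32.4% and 30.4% of 7733 transcripts under that setting. Mrpl51 had a log2 fold change of 0.71 and was no longer called (edgeR adjusted p = 0.0987), and Mrpl33, at 1.40 on exon counts and −0.30 on coding counts, was not called either (0.628). Mrpl52 had 3.09 and Mrpl40 1.93, both still called. Mrpl42, called at 0.51 on exon counts, turned to −1.13 (edgeR adjusted p = 0.00284). Its coding share, of coding plus 3′ UTR counts, was 20.4%, while 64.4% of its whole length is coding. This alternative sets coding counts against whole-exon input, so a transcript with a long 3′ UTR starts lower.

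Across members, enrichment had a Spearman rho of −0.04 with transcript length (0.20 over all transcripts), −0.13 with coding length (0.00 over all) and −0.28 with untreated RPKM (−0.25 over all), each over 68 members and 7820 transcripts. RPKM shares the poly(A) library with the enrichment. Median coding length was 558 nucleotides for enriched, 614 for uncalled and 770 for depleted members.

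In the library labelled siLin28a few of these mRNAs stood apart from siLuc. With 1 library per condition there is no replicate check, no p-value is given, and intervals are 95% and cover counting error only; in bulk RNA, fewer cells of a type and less RNA per cell cannot be told apart. The members' median log2 mRNA change, siLin28a against siLuc, was −0.07 over 70 members with at least 50 counts in both libraries, against −0.01 over 9725 transcripts. Of the 70, 1 was higher by 1.5-fold or more and 3 were lower by as much, where 7.37% and 5.11% of all transcripts were. Values below 0 were seen for 43 members and above 0 for 27, and 51.0% of all transcripts lay below 0.

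Mrpl3, whose bacterial homolog reaches towards the peptidyl transferase centre, had the largest decrease. Its level was 47.7 RPKM in untreated cells, 59.0 with siLuc and 26.4 with siLin28a, a log2 change of −1.16 against siLuc (−1.34 to −0.98) and −0.85 against untreated cells, which are the same siLin28a library against another control. Mrpl32, a homolog of bacterial L32 that is processed by a mitochondrial protease, went from 21.6 and 30.0 to 18.3 RPKM (−0.71, −1.05 to −0.38, against siLuc; −0.24 against untreated). Mrpl1 went from 16.8 and 19.0 to 12.3 RPKM (−0.63 against siLuc; −0.45 against untreated). Mrpl20 (−0.53 and −0.65) and Mrpl18 (−0.50 and −0.98) were the next lowest against siLuc and untreated cells. For Mrpl32 the siLuc library was itself 0.47 above the untreated one, which is larger than the difference from untreated cells.

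Mrps34 had the largest increase, from 58.4 RPKM untreated and 49.2 with siLuc to 82.4 with siLin28a (0.74, 0.56 to 0.94, against siLuc; 0.50 against untreated). Its locus lies 33 bases from that of Eme2 on mm9. Mrps21 stood 0.55 above siLuc and 0.84 above untreated cells. Mrps10 (0.52 against siLuc, −0.07 against untreated) and Mrps17 (0.45 and −0.24) did not keep their direction against untreated cells, whereas Mrps28 did (0.33 and 0.26). Against untreated cells 2 of 70 members were at least 1.5-fold higher and 4 lower, and the siLuc library against untreated cells had 0 higher and 2 lower. Over all 9725 transcripts 8.15% were higher and 5.45% lower against untreated cells with siLin28a, and 4.53% and 4.46% with siLuc.

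Footprints of these mRNAs were 7226 CPM with siLuc and 6771 with siLin28a. The members' median log2 footprint change was −0.08 over 72 members, and that of all 6963 transcripts −0.20. Of the 72, 0 were higher by 1.5-fold or more and 11 lower by as much, where 13.7% and 25.5% of all transcripts were. With TMM scaling the median of all transcripts moved from −0.20 to 0.03 and that of the members to 0.15, with 7 members higher and 3 lower (20.8% and 14.5% of all transcripts). The members' median lay above that of all transcripts. TMM scaling shifts every transcript by the same amount, so it could not change this order.

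The 11 lower members were Mrpl1, Mrpl3, Mrpl16, Mrpl19, Mrpl44, Mrpl45, Mrpl47, Mrps9, Mrps22, Mrps27 and Mrps35. Mrpl19, a homolog of bacterial L19, had 214 footprint counts with siLuc and 89 with siLin28a (log2 change −0.92, −1.30 to −0.56). The mitochondria-specific small subunit proteins Mrps35, with 595 and 250 counts (−0.91, −1.13 to −0.70), and Mrps22, with 779 and 329 counts (−0.90, −1.09 to −0.72), were as low. Mrpl3 lay at −0.79 and Mrps27 at −0.74. At the upper end were Mrpl23 (0.50), Mrps17 (0.48), Mrpl14 (0.44), Mrps21 (0.41) and Mrps28 (0.39). Across members the footprint change was lower at longer coding length (Spearman rho −0.59 over 67 members and −0.15 over 7181 transcripts). All these footprint changes come from the same pair of libraries.

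**Figure D4:**
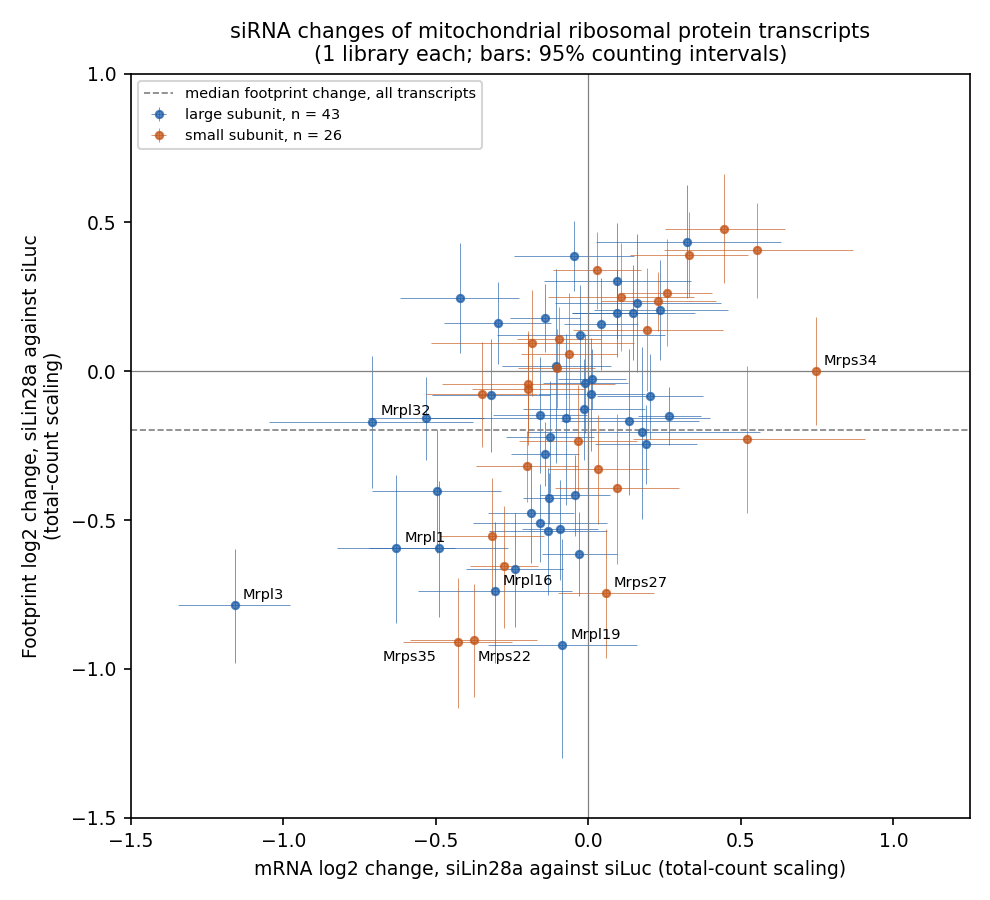
Log2 footprint change (y axis) against log2 mRNA change (x axis), siLin28a over siLuc by total counts, for 43 large and 26 small subunit members with at least 50 counts in each library; bars are 95% counting intervals, and the dashed line is the median footprint change of all transcripts, −0.20. Mrpl3 stands alone at the left at −1.16, and Mrps34 at the right at 0.74.

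Ribosome density is the footprint count over the poly(A) count of the footprint table, so its change compares footprints with mRNA from that table, centred on the median transcript. The members' median density change after siLin28a was 0.11, against 0 for all transcripts by construction. It was 0.0564 over the 55 members with at least 200 counts in each library, and −0.0812 without centring, where the median of all transcripts was −0.19. Of 72 members 4 were at least 1.5-fold higher and 2 lower, where 18.3% and 16.5% of all transcripts were. Large and small subunit medians were 0.10 and 0.15, a difference of −0.05 that changed sign under 3 of 5 alternatives.

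Mrpl36, a homolog of bacterial L36, had the largest increase in density. It had 501 footprint counts with siLuc and 469 with siLin28a, and 205 and 171 poly(A) counts in the same table (log2 change 1.05, 0.71 to 1.40). Mrpl3, whose mRNA had the largest decrease, followed at 0.67 (0.39 to 0.95), then Mrpl54 at 0.65 (0.30 to 0.99), Mrpl52 at 0.63 (0.41 to 0.86) and Mrps24 at 0.53 (0.32 to 0.73). Mrpl19 (−0.68, −1.14 to −0.21) and Mrps27 (−0.63, −0.89 to −0.36) had the lowest values, followed by Mrps34 (−0.51), Mrpl41 (−0.45) and Mrps22 (−0.44).

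Before the siLin28a change, ribosome density was high across the family. With siLuc the members' median was 0.90 above the median transcript, and 69 of 72 members lay above it. Of other lists, that of oxidative phosphorylation symbols had a median of 1.35 and cytosolic ribosomal proteins of 0.83, while mitochondrial aminoacyl-tRNA synthetases had 0.02. The highest members were Mrps36 (2.17), Mrpl34 (2.00), Mrpl27 (1.99), Mrps17 (1.99) and Mrps12 (1.97), the last a homolog of S12 of the decoding centre. Their siLuc poly(A) counts, in the footprint and then the poly(A) table, were 96 and 3 for Mrps36 and 120 and 42 for Mrpl27. They were 186 and 348 for Mrpl34, 129 and 334 for Mrps17 and 145 and 253 for Mrps12, so these ranks are uncertain. Mrps9, a homolog of bacterial S9, was the lowest at −0.94, with 590 footprint and 1225 poly(A) counts. Mrpl9 (−0.42) and Mrpl24 (−0.34) were also below the median transcript, and Mrpl48 (0.00) and Mrps27 (0.01) stood at it.

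**Figure D5:**
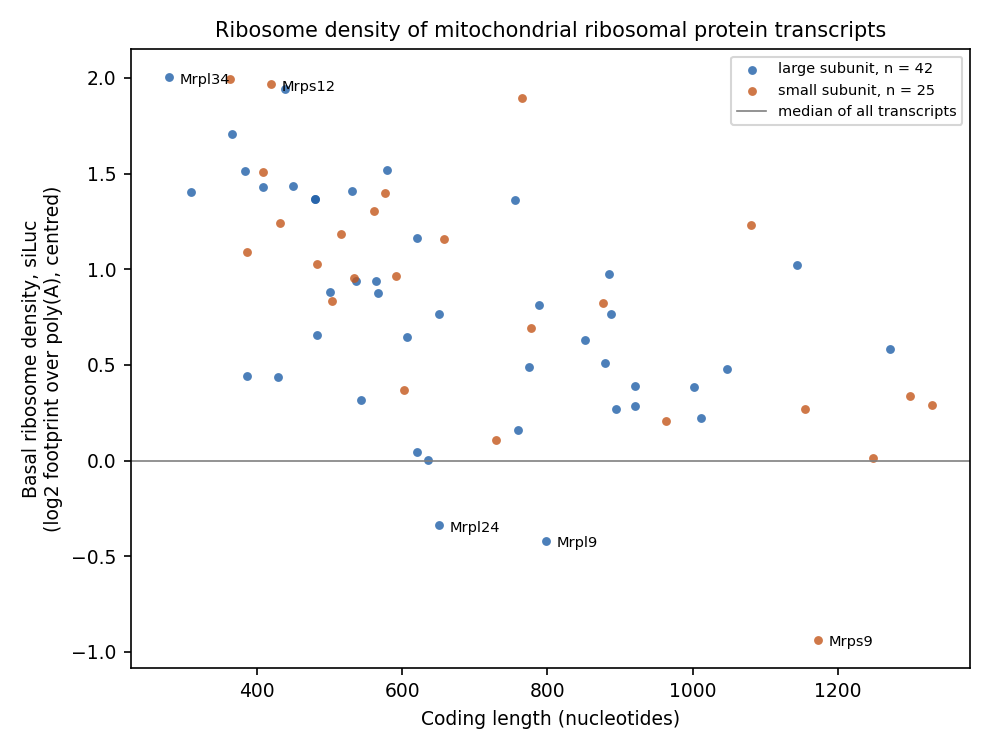
Basal ribosome density with siLuc (y axis, log2 of footprint over poly(A) counts, 0 at the median transcript) against coding length in nucleotides (x axis) for 42 large and 25 small subunit members with a coding length in the CLIP table. Short members such as Mrpl34 and Mrps12 stand near 2, and Mrps9, Mrpl9 and Mrpl24 are the points below 0.

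Density was lower at longer coding length in the members (Spearman rho −0.64 over 67 transcripts) as in all transcripts (−0.53 over 6519). The median coding length was 614 nucleotides for members and 1482 for all transcripts. The 2 tables also tallied poly(A) reads differently: the log2 ratio of the footprint table's to the poly(A) table's siLuc count had a Spearman rho of 0.52 with the coding percentage of length in members and 0.66 in all transcripts. With the poly(A) table's counts the members' median density was 1.04, and at a minimum of 200 counts in each library it was 0.49.

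CLIP enrichment and the siRNA values were set side by side. Enriched members had a median mRNA change of −0.14 (n = 18), uncalled members −0.10 (n = 32) and depleted members 0.07 (n = 18), and over all transcripts these were −0.13, −0.06 and 0.10. Median density changes were 0.31 (n = 17), 0.08 (n = 32) and 0.01 (n = 18) in the members, and 0.36, 0.02 and −0.34 over all transcripts. Median footprint changes were −0.08, −0.17 and −0.06 in enriched, uncalled and depleted members, and 0.04, −0.26 and −0.40 over all transcripts. Spearman rho between enrichment and density change was 0.30 over 67 members and 0.50 over 6519 transcripts, and between enrichment and mRNA change −0.49 over 68 and −0.30 over 7820. Between enrichment and footprint change it was −0.10 over 67 members and 0.28 over 7181 transcripts. Density change is footprint change less mRNA change, so a density value alone does not show a footprint change. Enrichment and mRNA change share no library, but the same transcripts and assay. Mrpl51, the most enriched member, had an mRNA change of −0.03 and a density change of 0.31.

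Start regions were read from RefSeq windows of 250 bases before to 50 after each gene start (GRCm38.p6), present for 65 of 74 members. They were searched on both strands for the letters GCGCATGCG, a core of the site of NRF1, a regulator of nuclear genes for mitochondrial proteins, CCGGAAGT, a core of ETS family sites, and AAGATGGCG, a core of YY1 sites. NRF1 letters were found in 7 of 65 members (10.8%), against 1.95% of all 27025 genes and 5.09% of 5385 genes with at least 200 untreated poly(A) counts. ETS letters were found in 12 (18.5%), against 4.31% and 11.2%, and YY1 letters in 8 (12.3%), against 1.64% and 4.75%. A match describes letters in a window and is not a site.

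The YY1 matches are shown because in 6 of 8 members they lie just downstream of the annotated start, on the gene's own strand. Each line reads 5′ to 3′ on the strand of the gene, with the match in capitals.
Mrps18a, chr17:46111005-46111033 (+): ggtgcgttccAAGATGGCGgccctcaggg
Mrps27, chr13:99344790-99344818 (+): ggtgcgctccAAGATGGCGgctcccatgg
Mrpl35, chr6:71823743-71823771 (−): ggcaggctgcAAGATGGCGgcttccatct
Mrpl37, chr4:107066822-107066850 (−): tgcacgggcaAAGATGGCGgcgtccaggt
Mrpl42, chr10:95501904-95501932 (−): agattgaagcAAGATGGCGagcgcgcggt
Mrps24, chr11:5707652-5707675 (−): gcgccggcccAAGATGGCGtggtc

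These matches begin 11 (Mrps18a), 14 (Mrps27), 23 (Mrpl35), 26 (Mrpl37), 27 (Mrpl42) and 36 (Mrps24) bases after the annotated start. The 6 genes do not share a CLIP direction: Mrps18a and Mrpl42 were enriched, Mrps27, Mrpl37 and Mrps24 depleted and Mrpl35 not called. In the other 2 members, Mrpl36 and Mrps11, the letters stand on the opposite strand before the start.

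NRF1 letters are shown for 3 members described above for their basal density (Mrpl9), coding share (Mrpl22) or mRNA change (Mrpl32), on the strand of the gene with the match in capitals.
Mrpl9, chr3:94443298-94443326 (+): aggcgcagctGCGCATGCGcggggtcctt
Mrpl22, chr11:58171621-58171649 (+): gcctcggactGCGCATGCGtatagtcagc
Mrpl32, chr13:14613106-14613134 (−): tttgacccttGCGCATGCGcaagaggggc

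Mrpl46 and Mrps11, a large and a small subunit gene, are neighbours on chromosome 7 that point away from each other, with mm9 loci ending at 85927975 and starting at 85928017, 42 bases apart. Their levels were 44.6 and 37.4 RPKM untreated, 53.0 and 30.0 with siLuc, and 48.4 and 34.3 with siLin28a. Both transcripts were below 0 in CLIP. Mrps11 had −0.41, −0.58 and −1.38 (mean −0.79 ± 0.52) and was not called (edgeR adjusted p = 0.0806), with the polyclonal antibody apart from the other two. Close neighbours were common: 24 of 74 members (32.4%) lay within 300 bases of another listed gene, against 22.4% of all transcripts, and 6 overlapped one. Whether counting used the strand is not given in the sources used here, so reads of these genes and their neighbours may be mixed.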

How the data were processed

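CLIP, poly(A) and ribosome footprint libraries of A3-1 cells were used from 3 deposited tables. The authors' tables hold raw read counts per RefSeq transcript, per the file headers, and the poly(A) table also RPKM values made by the authors; mm9, GSNAP and bedtools are named, without versions, per the submitters' processing notes, while counting rule and strand are not stated in the labels or headers. Another 8 per-sample columns were not used. Members and lists were chosen with earlier results of these data known.

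CLIP counts of 3 antibodies were tested against the single untreated poly(A) library with edgeR 4.0.16 (R 4.3.3; TMM, quasi-likelihood test, Benjamini-Hochberg over 7820 transcripts, adjusted p under 0.05). The filter on low counts removed none. With only 1 input library, its variation is taken to equal that of the CLIP libraries, so a p-value reflects spread among these libraries alone, possibly technical. Enrichment per antibody used a pseudocount of 0.5, so that folds are on the log2(value + pseudocount) scale. Changes after siRNA used total counts, a minimum of 50 counts in each library and a 1.5-fold limit, with 95% intervals (Clopper-Pearson; for density a normal approximation). Reads are not independent molecules, so intervals cover counting error only. Coding shares needed 20 coding plus 3′ UTR counts. The coding alternative set CLIP coding counts against untreated exon counts. The CLIP test was also run on simulated counts. There the input was drawn with the same variation as the CLIP libraries, so the run could not check that assumption.

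Members were named by rule: in each subunit the 5 highest and 5 lowest CLIP enrichments; the 4 largest SDs over antibodies; the 5 highest and 5 lowest mRNA, footprint and density changes, basal densities and RPKM levels; the 4 highest and 4 lowest coding shares; the Mrps18 paralogs, Mrps30, Mrps36 and the mitochondrial ribosomal proteins with other symbols. Other members, among them the stalk proteins and those with printed sequences, were chosen after their values were seen. Alternatives were DESeq2 1.42.0, other scalings, inputs, minimums and pseudocounts, and leaving out each antibody. Start windows came from RefSeq (GRCm38.p6), and siRNA sequences from the labels.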

Additional observations from a re-analysis of the deposited data

How the results depend on the processing

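With total counts in place of TMM, 11 members were enriched and 32 depleted, against 18 and 18. Leaving out each antibody in turn gave 15 to 18 enriched, 18 to 19 depleted, a large minus small difference of 0.12 to 0.34 and a median coding share of 74.7% to 76.1%. On coding counts the large minus small difference turned to −0.15, and Mrpl20 (0.0709), Mrpl33 (−0.30), Mrpl42 (−1.13), Mrpl50 (−1.65) and Mrps9 (0.40) turned sign, as did 11 members called on neither count. Mrpl24 turned to −0.65 with the poly(A) column deposited beside the CLIP counts. The median mRNA change was −0.0314 against untreated cells. The median footprint change was 0.15 with TMM. The median density change was 0.0564 at a minimum of 200 counts, 0.16 with poly(A) table counts and −0.0812 without centring. The large minus small density difference, −0.05, turned to 0.0530 at a minimum of 200 counts, 0.00501 without transcripts whose tallies differ, and 0.0711 with subunits assigned by structure. The median basal density was 1.04 with poly(A) table counts, 0.49 at a minimum of 200 counts and 0.98 with siLin28a. The change of scaling and the lack of centring shifted all transcripts together. Their median went from −0.03 to −0.40 in CLIP with total counts and from −0.20 to 0.03 in footprints with TMM. Without centring the median density change of all transcripts was −0.19. The cause was not tested for the other shifts. Without 35L33G, Mrpl42, Mrps22 and Mrps18a lost their calls, and DESeq2 kept 35 of 36 calls, losing that of Mrps22 (adjusted p = 0.0616), with 0 members changing sign. No paired analysis was possible because the labels give the groups no shared replicate numbers. With 1 library per siRNA condition, counting error is the only error known.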
